A study of Mus musculus with 15 samples.

Results

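The first wave of transcription after ERK is switched on was measured by comparing 4 RNA-seq libraries of mouse epiblast-like cells (EpiLCs) taken after 2 h of induction with 3 libraries taken at the start. These are 7 of the 15 libraries of the study, chosen by their labelled time point, and every gene that passed a filter on low counts was compared. EpiLCs are pluripotent cells in culture that resemble the epiblast of the embryo just after implantation. All 7 libraries came from line CRAFR26, in which an inducible c-RAF kinase construct turns on the ERK pathway when 4-hydroxytamoxifen (4OHT) is added. The cells had been held in N2B27 medium with 12 ng/ml bFGF, 20 ng/ml Activin A and 1 µM XAV939, an inhibitor of Wnt signalling, for 48 h. Every group then received 250 nM of the FGF receptor inhibitor PD17 (PD173074) for 2 h. The 0h cells were collected at that point, and the 2h cells were given 250 nM 4OHT for 2 h. Both groups held clones 4 and 8 of the line, with 1 and 2 libraries at 0h and 2 and 2 libraries at 2h. A further 0h sample was discarded by the authors in quality control. The construct is driven in 2 clones of 1 line, and no library of cells without it was compared. Whether PD17 stayed on during the 2 h of 4OHT is not stated in the labels. The effects of ERK, of 4OHT itself, of a longer or ended exposure to PD17 and of the extra time in culture therefore cannot be told apart in these data. The labels do not say whether the libraries of a clone came from separate cultures, so p-values measure the spread between these libraries, which may be technical. In bulk RNA, fewer cells of a type and less RNA per cell also cannot be told apart.

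ERK is the last kinase of the RAF, MEK and ERK relay that carries growth factor signals from the cell surface to the nucleus. Its first transcriptional targets, the immediate early genes, need no new protein to be switched on, and many of them encode transcription factors such as the Fos, Jun and Egr proteins. A second set of quick targets encodes the brakes of the pathway itself, the Sprouty and Spred adaptors and the dual specificity phosphatases. In epiblast cells, FGF acting through ERK drives the exit from naive pluripotency.

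Total counts lay between 9226145 and 13004556 per library, of which 15.8 to 40.6% fell on ribosomal RNA. Expression is given below as CPM, each library's counts divided by its size after scaling with the trimmed mean of M-values (TMM), and 3 counts, the floor used here, correspond to 0.186 to 0.420 CPM. All 9 markers fixed for formative epiblast passed the filter. Their summed level was 1582 to 1911 CPM at 0h and 1435 to 1711 CPM at 2h, and Pou5f1, a core pluripotency factor, stood at 195 ± 20.3 CPM (SD, n = 3) and 188 ± 37.3 CPM (SD, n = 4). Of 8 markers of naive cells 7 passed, with sums of 36.0 to 44.4 CPM and 34.9 to 42.8 CPM. Markers of primitive endoderm summed to 190 to 196 CPM at 0h and 165 to 199 CPM at 2h (7 of 12 tested, none called). Markers of neurectoderm summed to 88.6 to 96.1 and 72.7 to 110 CPM (6 of 8 tested, with Hes5 called higher, from 2 counts over the 0h libraries). Markers of fibroblast feeders summed to 6.04 to 13.4 and 5.62 to 13.2 CPM, and Postn had no count in any of the 7 libraries. Markers of trophectoderm summed to 25.7 to 35.5 CPM at 0h and 30.5 to 72.1 CPM at 2h, and the 1 called member of the 6 tested was the keratin Krt8. The part of other cell types in the results was not tested.

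Of 12944 genes tested, 1029 (7.95%) passed an adjusted p of 0.05 in edgeR's quasi-likelihood test with clone as a covariate and Benjamini-Hochberg adjustment. These genes are said here to have been called. Higher levels at 2h were called for 557 genes (4.30%) and lower levels for 472 (3.65%). The 2 directions differed in size more than in number. Of the risers, 227 had changed at least 2-fold, 82 at least 4-fold and 36 at least 8-fold, with a median of 1.82-fold. Of the falls, 88 had changed at least 2-fold, 2 at least 4-fold (Ankrd34a and Zscan2, neither called without 0h clone 4 replicate 1) and 0 at least 8-fold, with a median of 1.61-fold. A gene near 0 at the start could pass the filter only through the 2h libraries: 90 risers and 0 falls began under 1 CPM. All 2h libraries lay above all 0h libraries for 502 of the 557 risers, against 1288 of all tested genes (9.95%), and below them for 413 of the 472 falls, against 1216 of all (9.39%). The call itself depends on this separation, so these counts are descriptive. Scaling by total count instead of TMM shifted the median of all genes by -0.17 on the log2 scale and called 172 genes, 74.4% of them higher against 54.1% in the TMM fit. Another set of size factors (RLE) called 1021 genes. The 20 most abundant genes held 51.2 to 71.3% of the counts of a library. Without them and the mitochondrial genes, 1097 genes were called, with 99.8% of the risers and 99.6% of the falls kept. The number of calls also rested on single libraries. It was 242 without 0h clone 4 replicate 1, the only 0h library of that clone, 459 and 466 without 0h clone 8 replicate 1 and 2, 546 without 2h clone 8 replicate 1 and 1909 without 2h clone 8 replicate 2. No gene was called in opposite directions in any of these fits. When each library was left out in turn, 149 risers and 45 falls were called every time.

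**Figure D1:**
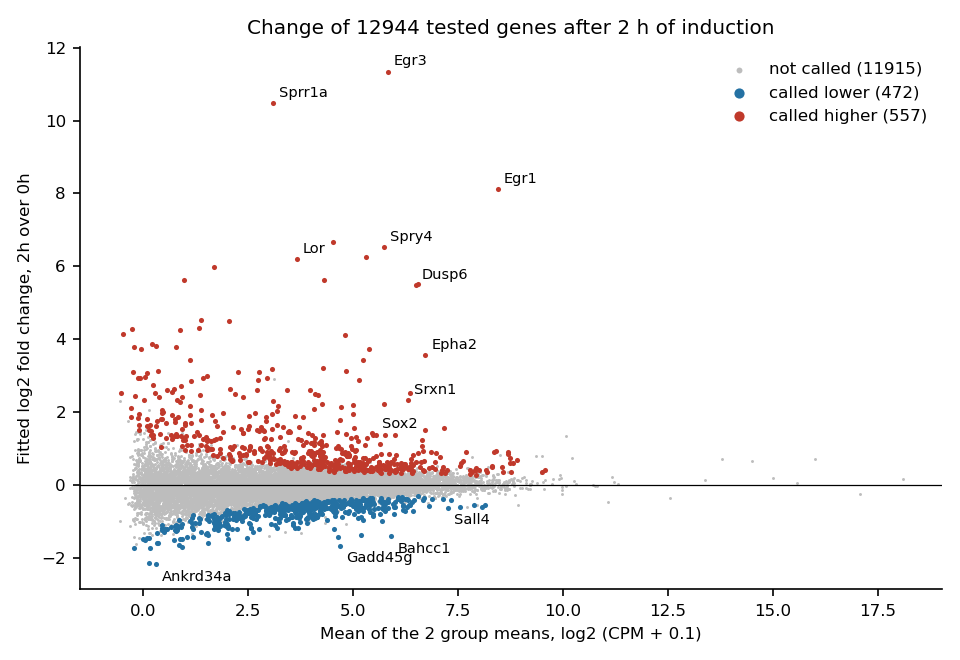
Fitted log2 fold change at 2h over 0h (y axis) against the mean expression of the 2 groups (x axis, log2 of CPM plus 0.1) for the 12944 tested genes, with called genes in colour. Rises reach a log2 fold change of 11.34 and falls reach -2.17, and many of the largest rises belong to genes of low mean level.

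**Figure D2:**
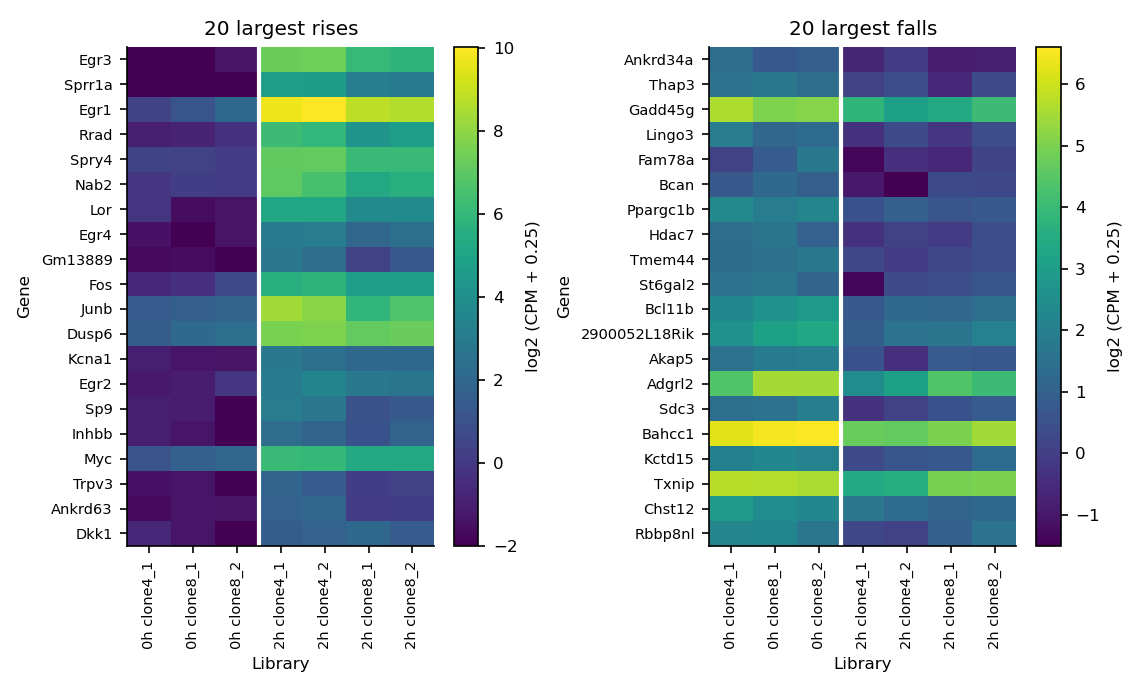
Expression of the 20 largest rises (left) and the 20 largest falls (right) in each of the 7 libraries, as log2 of CPM plus 0.25, with 0h libraries left of the white line. Most rises stand higher in the 2 clone 4 libraries at 2h than in the 2 clone 8 libraries. The largest fall is -2.17 on the log2 scale.

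The genes with the largest rises were short and had few exons. The 71 protein-coding genes that rose at least 4-fold had a median span of 6784 bases against 25210 for all tested protein-coding genes, and 57.8% of them had 3 exons or fewer against 18.9%. The called falls leaned the other way, with a median span of 28230 bases and 19.9% of genes longer than 100000 bases against 13.9% of all. No test was made of these differences, since expression, length and the power to call a gene are linked.

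Promoter sequences were taken for 9600 tested genes from RefSeq (GRCm38.p6), as the 250 bases before and 50 bases after the start of the gene. They were searched on both strands for the letters bound by factors that ERK acts through. The AP-1 site (TGACTCA or TGAGTCA), bound by Fos and Jun dimers, occurred in 7.29% of 398 promoters of risers, 0.862% of 348 promoters of falls and 3.11% of all. The Egr site (GCGTGGGCG or GCGGGGGCG) occurred in 14.1%, 6.61% and 7.0%, and its 2 forms can overlap with copies of themselves. The CArG box, bound by serum response factor, occurred in 2.51%, 1.15% and 1.28%. The cyclic AMP response element (TGACGTCA) occurred in 4.77%, 0.862% and 3.38%, and the ETS site (CCGGAAGT) in 6.28%, 1.15% and 8.84%. Median GC content of the window was 64.2% for risers, 65.0% for falls and 61.7% for all, a difference that can by itself move such shares. A match is a stretch of letters, not a measured binding site.

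The 5 upstream sequences below, each 250 bases long and ending at the base before the RefSeq start, show the forms these letters take in genes described further on. They were chosen after the matches were known, and the capitals mark the matches. They do not stand for the strong risers in general. Of 50 promoters of genes that rose at least 4-fold, 5 had an AP-1 match and 7 an Egr match. The CArG box occurred in 3, the cyclic AMP response element in 2 and the ETS site in 0. Fos, Junb, Dusp6, Egr2, Egr4 and Nab2 had no match of any of these kinds in the window searched, and no sequence outside it was searched. Some windows lie far from the GENCODE start of their gene, at 1865 bases for Nab2 and 53656 for Dusp1. The RefSeq start lies 8 bases from the GENCODE start for Srxn1, 14 for Sprr1a, 19 for Tnfrsf12a and 36 for Dusp5, so a stretch can reach into the gene as its position is given here. Sprr1a (chr3:92485882-92486131, minus strand) has 2 AP-1 matches that begin 146 and 116 bases before the start. Lor (chr3:92083143-92083392, minus strand) has 1 AP-1 match at 48 bases. Srxn1 (chr2:152105274-152105523, plus strand) has 2 AP-1 matches at 102 and 45 bases. Dusp5 (chr19:53528895-53529144, plus strand) has 2 adjoining CArG boxes at 82 and 72 bases. Tnfrsf12a (chr17:23677450-23677699, minus strand) has 2 overlapping Egr matches at 54 and 48 bases.
Sprr1a: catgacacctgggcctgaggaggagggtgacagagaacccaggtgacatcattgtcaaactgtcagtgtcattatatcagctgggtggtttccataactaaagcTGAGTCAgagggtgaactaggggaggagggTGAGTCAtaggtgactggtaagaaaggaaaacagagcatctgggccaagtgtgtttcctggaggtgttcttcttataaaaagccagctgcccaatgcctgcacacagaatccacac
Lor: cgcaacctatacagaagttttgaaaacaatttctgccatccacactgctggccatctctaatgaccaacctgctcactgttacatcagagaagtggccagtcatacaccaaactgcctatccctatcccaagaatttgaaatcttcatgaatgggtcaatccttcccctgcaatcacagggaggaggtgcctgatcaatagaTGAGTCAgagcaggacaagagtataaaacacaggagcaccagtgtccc
Srxn1: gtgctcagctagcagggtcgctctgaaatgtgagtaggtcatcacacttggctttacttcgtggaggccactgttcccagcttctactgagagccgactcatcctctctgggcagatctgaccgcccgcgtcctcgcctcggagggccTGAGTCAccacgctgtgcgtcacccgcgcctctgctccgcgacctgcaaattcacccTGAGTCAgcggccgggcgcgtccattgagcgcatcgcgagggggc
Dusp5: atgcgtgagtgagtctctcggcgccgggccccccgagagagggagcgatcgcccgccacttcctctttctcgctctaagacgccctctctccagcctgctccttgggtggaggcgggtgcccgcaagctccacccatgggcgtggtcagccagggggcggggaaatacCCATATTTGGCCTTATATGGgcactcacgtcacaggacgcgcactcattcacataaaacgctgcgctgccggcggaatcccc
Tnfrsf12a: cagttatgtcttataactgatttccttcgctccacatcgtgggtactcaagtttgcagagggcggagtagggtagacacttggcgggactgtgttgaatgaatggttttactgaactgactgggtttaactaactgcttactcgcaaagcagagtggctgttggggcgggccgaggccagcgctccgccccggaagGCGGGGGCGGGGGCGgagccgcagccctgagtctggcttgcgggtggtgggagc

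The gene lists used from here on were chosen with earlier results of these data known, or after values were seen where so stated. Feedback inhibitors of ERK were frequent among the risers. Of 24 tested members 11 were called higher and 1 lower, with a median log2 fold change of 0.83 against -0.01 over all tested genes. Without 0h clone 4 replicate 1 the counts were 8 and 0, with a median of 0.48. When libraries were scaled by their total counts alone (total count scaling), the counts were 7 and 0. Dusp6 (ENSMUSG00000019960, chr10:99263231-99267489 in mm10), a cytoplasmic phosphatase that acts on ERK, was at 2.64, 4.11 and 4.90 CPM in the 0h libraries and at 197, 209, 139 and 156 CPM in the 2h libraries. Here and below the order is clone 4, clone 8, clone 8 at 0h and clone 4, clone 4, clone 8, clone 8 at 2h. The groups lay far apart, with a log2 fold change of 5.50 (SE 0.20, adjusted p = 2.12e-07). Dusp5, the nuclear phosphatase of ERK whose promoter is printed above, went from 5.86, 3.64 and 3.92 CPM to 43.4, 36.9, 17.5 and 20.5 CPM, a log2 fold change of 2.51 (SE 0.14, adjusted p = 3.23e-06). Its exons overlap an antisense gene, and the counting is not stated to use strand. Spry2, an adaptor that blocks receptor signalling upstream of RAF, rose by 2.88 on the log2 scale, and Spry4 by 6.52. Dusp2, Dusp1 and Dusp14 rose by 2.88, 2.24 and 2.18, and the Spred adaptors Spred3 and Spred1 by 1.23 and 0.79. The fall was in Dusp7, a phosphatase of the same subfamily as Dusp6, which went from 24.6, 22.5 and 18.9 CPM to 14.3, 11.8, 10.03 and 14.6 CPM. Its log2 fold change was -0.82 (SE 0.15, adjusted p = 0.00715). Neither Dusp7 (adjusted p = 0.12) nor Spred1 was called without 0h clone 4 replicate 1. The list of the RAF, MEK and ERK relay, which also holds kinases that ERK activates, showed 1 call in each direction among 24 tested members (4.17% each). This lay near the shares of all tested genes, 4.30% higher and 3.65% lower. Rps6ka3 rose and Rps6ka2 fell, both kinases activated by ERK. Both calls were lost without 0h clone 4 replicate 1, 0h clone 8 replicate 2 or 2h clone 8 replicate 1, and that of Rps6ka2 also without 0h clone 8 replicate 1 or 2h clone 4 replicate 2.

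Among 29 tested immediate early transcription factors, 19 (65.5%) were called higher and 0 lower, against 4.30% and 3.65% of all tested genes. Their median log2 fold change was 1.27. Fos, a partner in the AP-1 dimer, was at 0.378, 0.542 and 1.40 CPM at 0h and at 46.6, 55.9, 25.7 and 26.6 CPM at 2h. Its log2 fold change was 5.62 (SE 0.48, adjusted p = 0.00236), and no 2h library came near the 0h range. Junb, another AP-1 subunit, went from 2.46, 2.87 and 3.36 CPM to 330, 239, 60.5 and 104 CPM, a log2 fold change of 5.51 (SE 0.52, adjusted p = 0.0154). The 2 clones stand apart at 2h for this gene, and its adjusted p was 0.0653 without 0h clone 8 replicate 1 and 0.0644 without 2h clone 4 replicate 2. Other AP-1 genes also rose, Fosl1 by 2.94, Fosl2 by 2.5, Fosb by 2.02 and Jun by 0.88. Fosb was not called without 0h clone 4 replicate 1 or 0h clone 8 replicate 1. Myc, a regulator of growth and metabolism, was at 1.89, 2.94 and 3.64 CPM and then at 70.4, 64.1, 38.1 and 37.8 CPM, a log2 fold change of 4.13 (SE 0.26, adjusted p = 4.31e-05). All 4 Egr zinc finger genes rose. Egr2 rose by 4.49 (SE 0.40, adjusted p = 4.81e-05), and Egr1 by 8.12, with an adjusted p of 0.0117 that became 0.0697 without 0h clone 8 replicate 1 and 0.0538 without 2h clone 8 replicate 1. Egr4 held 3 counts over the 0h libraries, and its pooled 2h to 0h ratio was 71.3 (95% exact counting interval 24.1 to 348). Csrnp1, Klf10 and Maff also rose by over 2 on this scale, at 3.14, 2.52 and 2.42.

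Immediate early genes that do not encode transcription factors followed the same direction, with 14 of 23 called higher, 0 lower and a median log2 fold change of 0.89. The count was 9 without 0h clone 4 replicate 1 and 6 with total count scaling. Arc, best known as a synaptic protein made on neuronal activity, went from 4.79, 4.8 and 4.62 CPM to 120, 106, 37.2 and 50.1 CPM, a log2 fold change of 3.73 (SE 0.23, adjusted p = 1.29e-05). Phlda1 and Phlda2, small proteins with a lipid-binding domain, rose by 2.95 and 2.20. Ier2 and Trib1 rose by 1.52 and 1.47. Rrad, a small GTPase of the Rad family, rose by 6.68 and shares exon positions with another gene. The 19 tested targets of serum response factor in the actin cytoskeleton gave 1 call in each direction (Ccn1 higher, Cnn2 lower). That was 5.26% each way, against 4.30% higher and 3.65% lower over all tested genes. Ccn1 was not called without 0h clone 4 replicate 1, nor Cnn2 without either 0h library of clone 8 or either 2h library of clone 8.

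Genes that limit the response at later steps were also higher. Nab2 (ENSMUSG00000025402, chr10:127660918-127668568 in mm10), a corepressor that binds Egr proteins, was at 0.693, 0.929 and 0.840 CPM at 0h and at 131, 92.7, 38.0 and 48.3 CPM at 2h. Its log2 fold change was 6.26 (SE 0.33, adjusted p = 6.62e-05). It overlaps an antisense gene. Its relative Nab1 rose by 2.46 and the ETS repressor Erf by 1.44. In the list of Nab and ETS factors 5 of 16 (31.25%) were called higher and 2 (12.5%) lower (Etv6 and Etv4). Over all tested genes 4.30% were called higher and 3.65% lower. The list's counts were 3 and 0 without 0h clone 4 replicate 1, without 0h clone 8 replicate 2 and with total count scaling. No fall was called without 0h clone 8 replicate 1 either, and 1 without 2h clone 8 replicate 1. Of 13 factors that speed mRNA decay, 5 were called higher, led by Zfp36, which binds AU-rich elements of early response mRNAs. Zfp36 went from 3.59, 2.79 and 3.36 CPM to 44.1, 53.2, 23.7 and 20.9 CPM, a log2 fold change of 3.22 (SE 0.18, adjusted p = 4.46e-06). The count of 5 was 2 without 0h clone 4 replicate 1 or 0h clone 8 replicate 1, and 3 without 0h clone 8 replicate 2 or 2h clone 8 replicate 1. It was 1 with total count scaling.

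**Figure D3:**
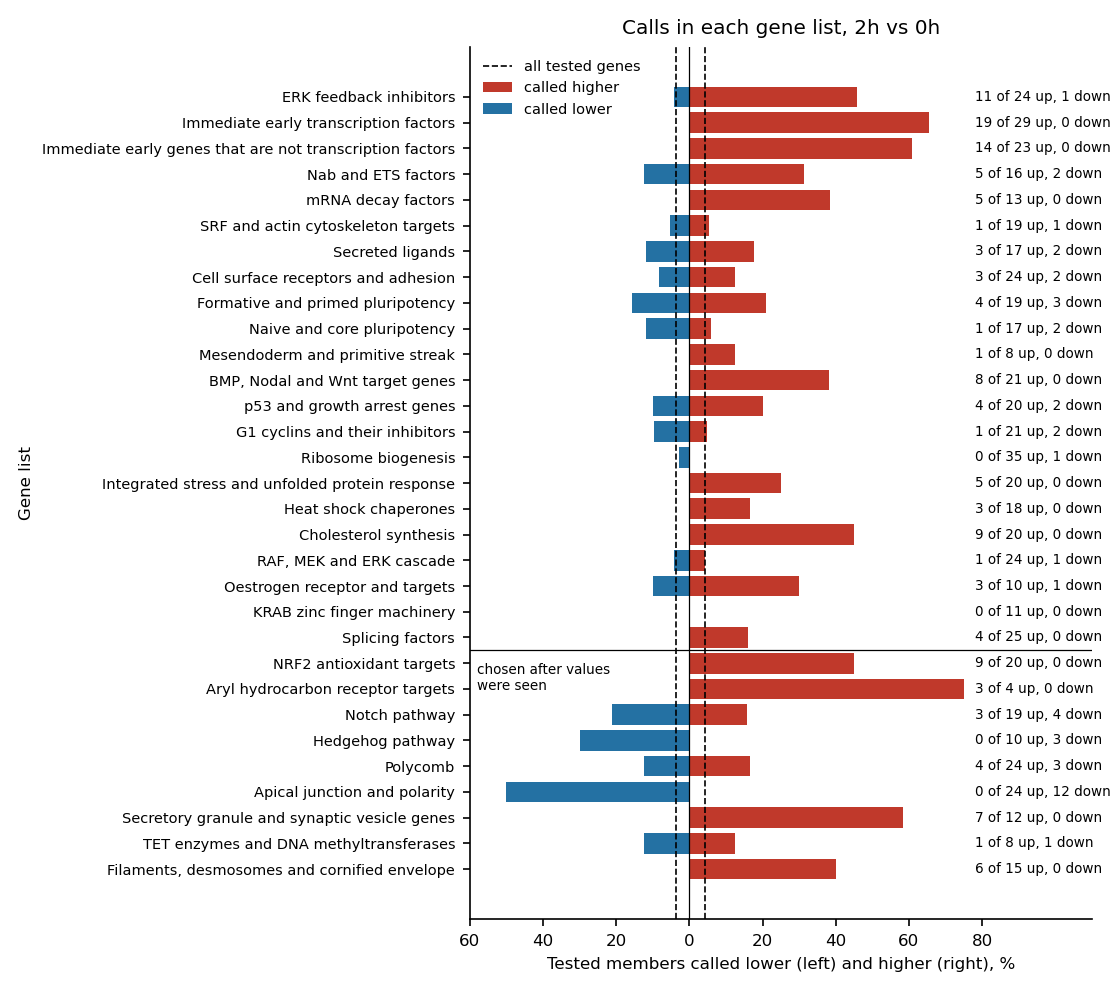
Share of tested members of each gene list called lower (left, blue) and higher (right, red) at 2h, with the counts at the right and dashed lines at the shares over all tested genes (3.65% lower, 4.30% higher). The lists above the horizontal line were chosen with earlier results of these data known, and the 9 lists under it after values were seen. Immediate early genes and feedback inhibitors have the longest red bars among the lists above that line, and apical junction genes have the longest blue bar.

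Ligand and receptor genes were called in both directions. Of 17 tested secreted ligands, 3 (17.6%) were called higher and 2 (11.8%) lower, and of 24 receptors and adhesion genes 3 (12.5%) were higher and 2 (8.33%) lower, against 4.30% and 3.65% of all tested genes. With total count scaling each list had 2 rises and 0 falls. Of these falls, 0 were called without 0h clone 4 replicate 1, and 1 in each list without either 0h library of clone 8. The receptor falls were also 1 without 2h clone 4 replicate 1 or 2h clone 8 replicate 1. Epha2 (ENSMUSG00000006445, chr4:141301240-141329384 in mm10), an ephrin receptor, was at 10.4, 18.6 and 19.9 CPM at 0h and at 244, 216, 147 and 168 CPM at 2h. The log2 fold change was 3.56 (SE 0.25, adjusted p = 0.000357). Among 39 tested Eph receptors, ephrins, semaphorins and plexins, a class formed after values were seen, Epha2 was the only member called higher. The 7 called lower were Ephb4, Epha8, Efna4, Sema6a, Sema6b, Sema6c and Plxnb2, and this count was 1 without 0h clone 4 replicate 1, 3 without 0h clone 8 replicate 1 or 2h clone 8 replicate 1, and 4 without 0h clone 8 replicate 2. Sema6a, a transmembrane guidance cue, went from 62.2, 89.7 and 89.8 CPM to 30.6, 33.8, 59.9 and 52.2 CPM. Its groups do not overlap, although the clone 8 libraries at 2h lie close to the clone 4 library at 0h. Hbegf, a ligand of the EGF receptor, rose by 2.99 from a start of 0.530 ± 0.158 CPM (SD, n = 3). Dkk1, a secreted Wnt antagonist, rose by 3.78, and Inhbb, which encodes an activin subunit, by 4.25. Fgf5, a formative epiblast marker, was at 33.7, 23.3 and 23.7 CPM and then at 18.9, 18.9, 19.4 and 16.3 CPM, a log2 fold change of -0.58 (SE 0.12, adjusted p = 0.0156). Its adjusted p was 0.264 without 0h clone 4 replicate 1 and 0.0506 without 0h clone 8 replicate 2. Tnfrsf12a, a receptor of the TNF family whose promoter is printed above, went from 2.20, 2.17 and 2.80 CPM to 21.4, 19.6, 7.62 and 8.79 CPM, a log2 fold change of 2.31 (SE 0.26, adjusted p = 0.000633).

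The pluripotency genes split. Of 19 formative genes 4 (21.05%) were called higher and 3 (15.8%) lower. Of 17 naive and core genes 1 (5.88%) was higher and 2 (11.8%) were lower, against 4.30% and 3.65% of all tested genes. Sox2 (ENSMUSG00000074637, chr3:34650405-34652461 in mm10), a core pluripotency factor, was at 24.2, 27.2 and 26.3 CPM at 0h and at 61.9, 69.3, 72.2 and 64.7 CPM at 2h. The log2 fold change was 1.44 in clone 4 and 1.35 in clone 8, and 1.39 in both together (SE 0.09, adjusted p = 1.20e-05). Foxd3 rose by 1.76 and Zic5 and Zic2 by 1.00 and 0.83, all transcription factors of the early epiblast. Foxd3 shares exon positions with another gene. Sall4 (ENSMUSG00000027547, chr2:168748332-168767943 in mm10), a zinc finger partner of Pou5f1, was at 198, 178 and 178 CPM and then at 114, 113, 123 and 133 CPM. Its log2 fold change was -0.61 (SE 0.09, adjusted p = 0.00207), with an adjusted p of 0.0659 without 0h clone 4 replicate 1. Utf1, Grhl2 and Tdgf1 were called lower at -0.56, -0.71 and -0.42. The 3 and 2 falls of these lists became 1 and 0 without 0h clone 4 replicate 1, and Utf1 and Tdgf1 were not called. With total count scaling both counts of falls were 0, and 1 formative gene was called higher. Without 2h clone 8 replicate 2 the formative falls were 5, and the naive and core rises were 2 without that library or 0h clone 8 replicate 2. Tdgf1 was also not called without either 0h library of clone 8 or 2h clone 8 replicate 1. Nanog did not pass (log2 fold change -0.44, adjusted p = 0.0569). Among 9 tested Sox genes, Sox9, Sox13, Sox2 and Sox8 were called higher (3.11, 1.87, 1.39 and 1.33) and Sox12 lower (-0.45). Sox9, a factor of later lineages, started at 0.881, 1.16 and 0.280 CPM and reached 14.1, 10.5, 4.41 and 5.32 CPM. Of 15 Klf genes, Klf10, Klf6 and Klf3 were called higher and Klf11 and Klf13 lower. The calls of Sox8, Sox12, Klf3, Klf11 and Klf13 were lost without 0h clone 4 replicate 1. That of Klf3 was also lost without 0h clone 8 replicate 1, and that of Sox12 without either 0h library of clone 8 or 2h clone 8 replicate 1. Without 2h clone 8 replicate 2, 5 Klf genes were called higher.

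Targets of other signalling pathways included a further set of risers. Of 21 tested genes listed as targets of BMP, Nodal or Wnt, 8 (38.1%) were called higher and 0 lower, although the median was 0.00. Over all tested genes 4.30% were called higher and 3.65% lower. The 8 included Hes5, an effector of the Notch pathway that is counted again in the Notch list below. With total count scaling 5 were called higher. The risers held the 4 Id genes, inhibitors of basic helix-loop-helix factors: Id4 rose by 3.42, Id3 by 2.42, Id2 by 2.07 and Id1 by 1.74, each from at most 1.07 CPM in any 0h library. Smad7, an inhibitor of TGF-beta signalling, was at 28.1, 32.6 and 31.5 CPM and then at 75.7, 66.6, 75.2 and 95.1 CPM, a log2 fold change of 1.38 (SE 0.11, adjusted p = 2.82e-05). Of 19 tested Notch pathway genes, a list chosen after values were seen, the effectors Hes1, Heyl and Hes5 were higher, and Dll1, Jag2, Dtx1 and Rfng were lower. Hes1 rose by 1.30 and Heyl by 3.08. Hes5 held 2 counts over the 0h libraries, and its pooled ratio was 23.9 (95% exact counting interval 6.34 to 202). The ligands Dll1 and Jag2 fell by 0.94 and 0.89, from 27.1 ± 3.12 to 14.2 ± 0.889 CPM and from 45.9 ± 7.39 to 23.6 ± 5.30 CPM (SD, n = 3 and 4). Gsc, a gene of the primitive streak, was the single call among 8 mesendoderm genes, at 0.378, 0.0774 and 0 CPM and then 2.25, 0.815, 1.60 and 1.30 CPM. It was not called without 0h clone 8 replicate 1 (adjusted p = 0.0798) and fell under the filter on low counts without 2h clone 4 replicate 1 or either 2h library of clone 8. Hes5 fell under it without either 2h library of clone 4 or 2h clone 8 replicate 2. Without 0h clone 4 replicate 1 the calls of Hes5, Id3 and Rfng were lost, and Rfng kept its call only without 2h clone 8 replicate 2. None of the 4 Notch pathway falls was called with total count scaling.

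Metabolic and stress genes were also among the risers. For comparison, 4.30% of all tested genes were called higher and 3.65% lower. Of 20 genes of cholesterol synthesis, 9 were called higher and 0 lower, with a median log2 fold change of 0.27. This count was 12 after correction for GC content, 4 without 0h clone 4 replicate 1 and 0 with total count scaling. The list median minus that of all tested genes was 0.27 with total count scaling and 0.28 in the main fit. Insig1, the sterol-sensing brake on the pathway, was at 75.7, 40.0 and 40.2 CPM at 0h and at 210, 204, 77.8 and 96.4 CPM at 2h, a log2 fold change of 1.25 (SE 0.11, adjusted p = 5.23e-05). The clone 4 library at 0h lay close to the lower clone 8 library at 2h, and the groups do not overlap. Hmgcs1, an early enzyme of the pathway, rose by 0.90. Of 20 tested targets of the antioxidant factor NRF2, a list chosen after values were seen, 9 were called higher and 0 lower, with a median of 0.37. The count was 5 without 0h clone 4 replicate 1 and 2 with total count scaling. Srxn1 (ENSMUSG00000032802, chr2:152105516-152111376 in mm10), an enzyme that repairs peroxiredoxins, was at 22.9, 22.1 and 21.3 CPM and then at 186, 194, 75.6 and 87.1 CPM, a log2 fold change of 2.34 (SE 0.18, adjusted p = 4.81e-05). Its promoter carries the 2 AP-1 matches printed above. Hmox1, which breaks down heme, went from 65.5, 62.5 and 69.7 CPM to 294, 297, 143 and 157 CPM, and Gclc, an enzyme of glutathione synthesis, rose by 0.90. For these 3 genes all 2h libraries lay above all 0h libraries, and clone 4 stood higher. Of 4 tested targets of the aryl hydrocarbon receptor, also a list chosen after values were seen, Cyp1b1, Cyp1a1 and Tiparp rose by 2.18, 1.76 and 1.12. The remaining member went the other way (-0.58) and was not called. With GC correction, or without 2h clone 8 replicate 2, 1 member of this list was called lower. Of 20 genes of the integrated stress and unfolded protein responses, 5 were called higher, with Ddit3 at 1.60 and Hspa5 at 0.70, and 2 without 0h clone 4 replicate 1, where Hspa5 was lost, and 1 with total count scaling. Ribosome biogenesis, a common target of Myc, showed 0 rises and 1 fall (Polr1b, 2.86%) among 35 tested genes. At shares of 4.30% and 3.65% over all tested genes, few calls would stand among so few genes. A response of Myc targets was not tested. The falls were 3 without 2h clone 8 replicate 2 and 0 without any single 0h library or 2h clone 8 replicate 1. Of 83 cytosolic ribosomal protein genes 0 were called, against 7.95% of all tested genes. In this class 2 were called higher after GC correction or without 2h clone 8 replicate 2, and 6 without both 2h clone 4 replicate 2 and 2h clone 8 replicate 1.

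A further group of large rises lay in genes known from differentiated tissues. Lor (ENSMUSG00000043165, chr3:92080271-92083142 in mm10), a protein of the cornified envelope of skin, was at 0.630, 0.0774 and 0.140 CPM at 0h and at 36.3, 36.5, 13.1 and 12.8 CPM at 2h. Its log2 fold change was 6.20 (SE 0.24, adjusted p = 1.65e-08). Sprr1a, another cornified envelope gene, had 0 counts in the 0h libraries and was at least 40.0-fold higher at 2h, taking 3 counts per 0h library as the floor. Both promoters carry AP-1 matches, as printed above. In the list of filaments, desmosomes and cornified envelope genes, chosen after values were seen, 6 of 15 were called higher and 0 lower. Its other members called were Nefm (3.43), a neurofilament subunit, the desmosome gene Dsp (2.22), Krt8 (1.43) and Vim (0.56, lost without 0h clone 4 replicate 1), and Nefm and Dsp overlap antisense genes. Of 12 tested genes of secretory granules and synaptic vesicles, also chosen after values were seen, 7 were called higher and 0 lower, with a median of 1.18. For comparison with both lists, 4.30% of all tested genes were called higher and 3.65% lower. Nptx1, a secreted synaptic protein, went from 1.57, 1.01 and 1.68 CPM to 24.3, 18.9, 9.33 and 8.42 CPM, and Pcsk2, a protease that processes prohormones, from 0.881, 1.08 and 1.40 CPM to 7.53, 8.76, 7.02 and 4.83 CPM. The count of 7 was 4 without 0h clone 4 replicate 1. The potassium channel gene Kcna1 rose by 4.52 from 0.182 ± 0.0607 CPM (SD, n = 3).

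The falls were smaller than the rises, as the counts by size above show. Ankrd34a (ENSMUSG00000049097, chr3:96596636-96599775 in mm10) had the largest, from 2.39, 1.39 and 1.68 CPM to 0.396, 0.713, 0.301 and 0.309 CPM, with a log2 fold change of -2.17 (SE 0.34, adjusted p = 0.00231). Its 2h values are near the floor of 3 counts, and its adjusted p was 0.0566 without 0h clone 4 replicate 1. Of the 20 largest falls, 7 were called whichever library was left out: Gadd45g, Ppargc1b, Bcl11b, 2900052L18Rik, Adgrl2, Bahcc1 and Chst12. Gadd45g (ENSMUSG00000021453, chr13:51846678-51848468 in mm10), a stress and differentiation gene, was at 48.9, 32.4 and 34.9 CPM and then at 13.7, 8.14, 10.6 and 16.5 CPM. The groups do not overlap, and the log2 fold change was -1.66 (SE 0.22, adjusted p = 0.000948). Its relatives Gadd45a and Gadd45b were called higher, by 1.02 and 1.35, and Gadd45b kept its call only without 2h clone 8 replicate 1. Bahcc1 (ENSMUSG00000039741, chr11:120232947-120292296 in mm10), a chromatin protein with a BAH domain, was at 74.8, 90.1 and 97.2 CPM and then at 25.9, 25.1, 32.1 and 44.6 CPM, a log2 fold change of -1.39 (SE 0.12, adjusted p = 4.81e-05). It shares exon positions with another gene. Adgrl2, an adhesion receptor, fell from 21.0, 45.7 and 44.0 CPM to 5.15, 8.35, 21.0 and 16.3 CPM. Here the groups overlap, since the clone 4 library at 0h lay near a clone 8 library at 2h, while within each clone the 2h libraries were lower (log2 fold change -1.63 and -1.27). Bcl11b and Ppargc1b, a transcription factor and a coactivator of mitochondrial genes, fell by 1.47 and 1.58. The other 12 of the 20, from Thap3 at -1.69 to Rbbp8nl at -1.33, had means of 1.77 to 51.1 CPM at 0h and lost the call in at least 1 of the 7 fits that left out a library. Among them, Txnip, a thioredoxin inhibitor, fell by 1.35 and was not called after GC correction (adjusted p = 0.102) or without 2h clone 4 replicate 2 or either 2h library of clone 8.

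Genes of epithelial organisation had the largest share of falls among the lists. Of 24 tested genes of apical junctions and polarity, a list chosen after values were seen, 12 were called lower and 0 higher, with a median log2 fold change of -0.48 against -0.01 over all tested genes. The same number was called lower after correction for GC content. Without 0h clone 4 replicate 1 it was 3, and with total count scaling 1. The list median minus that of all tested genes was -0.46 with total count scaling and -0.48 in the main fit. Shroom2 (ENSMUSG00000045180, chrX:152609509-152769465 in mm10), an actin-binding protein of apical junctions, was at 42.5, 52.0 and 54.5 CPM at 0h and at 21.7, 24.1, 26.9 and 26.7 CPM at 2h. The groups lay well apart, with a log2 fold change of -0.95 (SE 0.10, adjusted p = 0.000161). Nectin1, an adhesion molecule of adherens junctions, went from 52.6, 40.9 and 45.8 CPM to 30.0, 25.1, 22.6 and 26.5 CPM (log2 fold change -0.87). The tight junction genes Tjp3 and Cgn were lower by -1.21 and -0.67, and the sialomucin Podxl, which coats the apical membrane, by -0.70. Among 39 MAP kinases and the kinases above them, a class formed after values were seen, 7 were called lower (Map3k5, Map3k9, Map3k12, Map3k4, Mapk4, Mapk7 and Mapk14) and 1 higher (Map2k4). The falls were 3 without 0h clone 4 replicate 1 and 4 without 0h clone 8 replicate 1, 0h clone 8 replicate 2 or 2h clone 8 replicate 1. The rise was lost without any single 0h library, without 2h clone 4 replicate 2 or without 2h clone 8 replicate 1, and 4 rises were called without 2h clone 8 replicate 2. Cell cycle genes of G1 gave 2 falls, Cdk6 (-0.89) and Ccnd1 (-0.58), and 1 rise, Cdkn1c (0.89), among 21. These were 9.52% lower and 4.76% higher, against 3.65% and 4.30% of all tested genes. Without 0h clone 4 replicate 1 the calls of Tjp3, Cgn and Ccnd1 were lost, and that of Tjp3 also without 0h clone 8 replicate 1, while 3 G1 genes were called higher without 2h clone 8 replicate 2. The list of TET enzymes and DNA methyltransferases was also chosen after values were seen. Among its 8 tested members, Tet1 was called lower (-0.60) and Tet2 higher (1.22). Tet1 was at 205, 223 and 255 CPM and then at 117, 153, 185 and 128 CPM, and Tet2 at 10.9, 11.5 and 12.0 CPM and then at 19.4, 28.0, 34.9 and 22.5 CPM. Tet1 was not called without 0h clone 4 replicate 1 or 0h clone 8 replicate 2, and 3 genes of the list were called lower without 2h clone 8 replicate 2.

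The 2 clones answered in the same direction, and most called genes moved more in clone 4. All 557 risers and all 472 falls had the same sign in both clones, against 69.5% of all tested genes. The call was made on the 2 clones together, so this agreement is a description. The rise was larger in clone 4 for 437 of the 557 risers (78.5%) and for 67 of the 82 that rose at least 4-fold, and the fall was larger in clone 4 for 303 of the 472 falls (64.2%), against 61.2% of all tested genes. The median log2 fold change of risers was 0.99 in clone 4 and 0.74 in clone 8, and that of falls -0.77 and -0.63. The difference between the clones was tested gene by gene as an interaction, and 0 genes (0%) were called, with 604 at an unadjusted p under 0.05 and a smallest adjusted p of 0.0547, for Txnip. DESeq2 called 21 genes and edgeR with a GC correction 44. The 10 called genes with the smallest interaction p were Txnip, Dnajb1, Epha2, Myc, Klf10, Egr1, Nab1, Ptprn, Srxn1 and Rhbdf1, and all 10 moved more in clone 4. Among them, Txnip, Dnajb1, Rhbdf1 and Egr1 lost their 2h call in at least 1 of the fits that left out a 2h library. For Myc the log2 fold changes were 5.15 in clone 4 and 3.53 in clone 8, and for Srxn1 3.05 and 1.91. In clone 8 alone, with 2 libraries against 2, 237 of the risers and 137 of the falls were called. Clone 4 had 1 library at 0h, so its fold changes rest on that library.

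**Figure D4:**
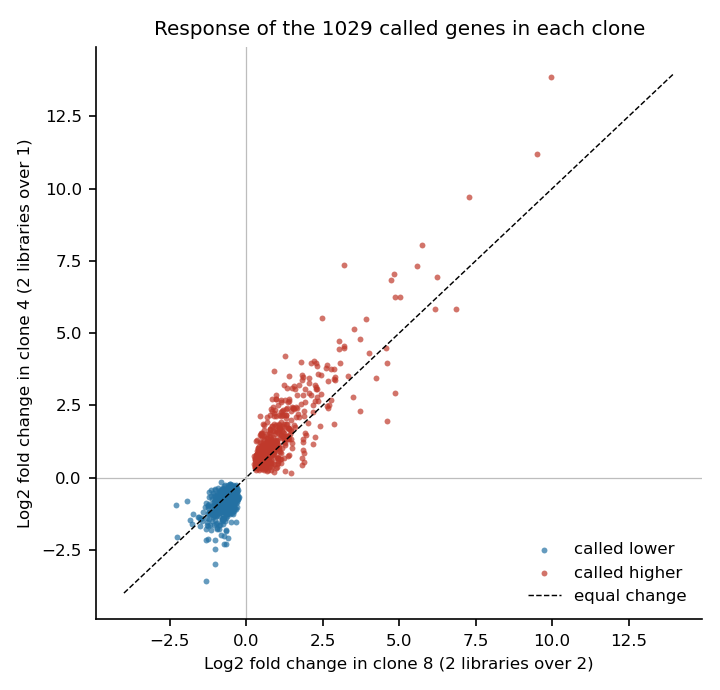
Log2 fold change in clone 4 (y axis, 2 libraries over 1) against clone 8 (x axis, 2 libraries over 2) for the 1029 called genes, with a dashed line of equal change. Every called gene lies above 0 on both axes or below 0 on both, and 78.5% of risers lie above the line.

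The libraries also differed in how their levels depended on the GC content of genes. The calls were therefore set against this trend. Over the 12932 genes with a GC value, log2 fold change and GC content had a Pearson r of -0.24 across genes, which are not independent replicates. The median log2 fold change went from 0.25 in the lowest of 10 equal bins of GC content (29.6 to 41.0%) to -0.21 in the highest bin (58.1 to 78.3%). Falls made up 0.155% of the former and 8.98% of the latter, and risers 8.11% and 4.41%. The 2h libraries clone 4 replicate 2 and clone 8 replicate 1 had this trend, with a difference between the top and the bottom bin of -0.43 and -0.59 (median log2 deviation), while the other 5 libraries lay between 0.11 and 0.39. These same 2 libraries had the highest shares of mitochondrial counts (6.98 and 6.03% against 2.67 to 3.84%). No mitochondrially encoded gene among 11 was called, but all 11 had a positive log2 fold change. Their median was 0.74, and 0.37 after GC correction. Without 2h clone 8 replicate 2, 1 of them was called higher. After a GC correction within each library, r was 0.00, and 696 genes (5.38%) were called higher and 561 (4.33%) lower. Of the main calls 496 of 557 risers and 412 of 472 falls were called again. The falls after correction ranged from 1.93% of the lowest bin to 7.82% of the highest. The risers of at least 8-fold lay mostly against the trend, with 1 in the lowest bin and 10 in the highest. Without the 2 libraries, 356 of the risers and 294 of the falls were called again.

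**Figure D5:**
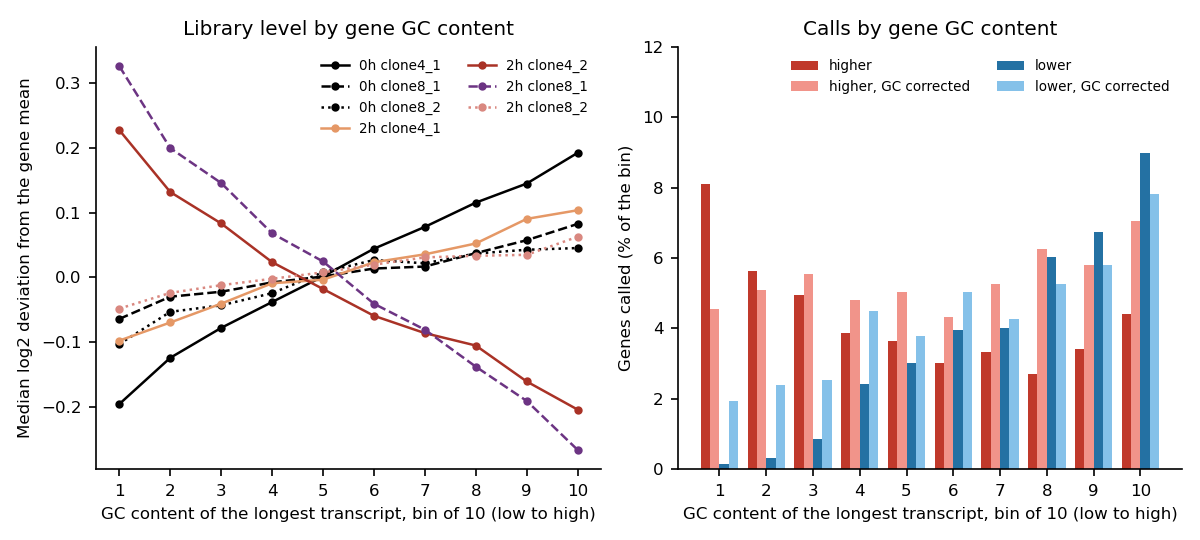
Left, median log2 deviation of each library from the gene mean in 10 bins of GC content. Right, percentage of genes called higher or lower in each bin, before and after GC correction. The 2h libraries clone 4 replicate 2 and clone 8 replicate 1 slope downward, and the share of falls runs from 0.155% in the lowest bin to 8.98% in the highest before correction.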

How the data were processed

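Libraries were made from total RNA after ribosomal RNA had been removed, per the labels' protocols. The authors deposited raw counts for each gene, whole numbers with no normalization. Per the submitters' processing notes, bcl2fastq 2.19.1 and STAR 2.5.3a were used with the mm10 build; the counting tool, annotation and use of strand are not given in the sources used here. Of 52636 gene identifiers, 52489 were in GENCODE M21, which gave names, positions, GC content of the longest transcript and exon overlaps.

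Counts of the 7 libraries were filtered with filterByExpr (minimum count 10, minimum total 15), scaled by TMM and fitted with edgeR 4.0.16 in R 4.3.3 (quasi-likelihood F test, robust, two-sided, Benjamini-Hochberg adjustment, threshold 0.05). The model held group and clone, and the clone difference was their interaction. CPM uses the TMM-scaled totals of tested genes. Floors (3 counts) and 95% exact intervals cover counting error only. Chi-square per degree of freedom between libraries of a group, of the same or different clones, was 13.0 to 258, above counting noise. No library was therefore counted as a copy of another. The measure included ribosomal RNA and cannot exclude that libraries of a clone were made from the same RNA. The GC correction was a lowess offset per library (span 0.3). The script was tested on simulated data. The alternatives were other scalings, filters, DESeq2 1.42.0, limma 3.58.1 (voom), other covariates, GC and length corrections and leaving out each library; 2 were added after the data were seen.

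The genes named were members of 26 gene lists, the 20 largest rises and 20 largest falls among called genes with a mean of at least 1 CPM and the same direction in both clones, and the 10 called genes with the smallest interaction p. The members and lists were chosen with earlier results of these data known, and 9 further lists and 2 classes of genes by name were formed after the values were seen. Zscan2, Tnfrsf12a, Sox and Klf genes and the members of those 2 classes were likewise singled out after their values were seen, where no list held them.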

Additional observations from a re-analysis of the deposited data

Results flagged for a closer look

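For 3 genes, 1 of the 4 libraries at 2h lay apart from the other 3 by most of the group's range. For Cdk6, a kinase of the G1 phase, 2h clone 8 replicate 1 was at 11.7 CPM and the other 2h libraries at 9.88 to 10.04 CPM. For Fgf5, 2h clone 8 replicate 2 was at 16.3 CPM and the others at 18.9 to 19.4 CPM. For Foxi3, a forkhead gene, 2h clone 8 replicate 2 was at 10.1 CPM and the others at 8.32 to 8.43 CPM. In each case all 2h libraries remained below all 0h libraries. Chance alone marks about 1 in 20 groups in this way, and 3 were marked among the 189 results examined.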

How the results depend on the processing

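Of 180 genes named in the text that were called, 0 reversed direction under any alternative and 52 were called under every alternative that tested them. The number of called genes moved from 1029 to 172 with total count scaling, to 512 without the clone term and to 414 in clone 8 alone, where fewer libraries were fitted. Leaving out 1 library gave 242 to 1909 calls; the cause of the spread was not tested, apart from the loss of 1 library. Counts under the other settings lay within 1.5 times of the main count, from 729 with GC correction and replicate block together to 1257 with GC correction alone. The difference between clones gave 44 genes with GC correction, 21 with DESeq2 and 0 to 22 when a library was left out (6 without 2h clone 4 replicate 1), against 0. The replicate numbers in the labels were not taken to pair the libraries, and whether they do is not settled. Deviations of same-numbered libraries from their group means correlated at 0.38, 0.27 and 0.05, and 1 of these is under 0.1. Such deviations also hold the clone difference. Within clone 8, the difference between replicates 1 and 2 correlated at -0.07 between 0h and 2h. Of the 3 libraries at 0h, 2 correlated best with their own number. With a replicate block 819 genes were called. Without 0h clone 4 replicate 1, clone 4 has no start library and adds nothing to the fold change. Genes with few counts are limited by depth: the floor was 0.186 to 0.420 CPM.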

Other observations

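Secreted and extracellular genes outside the lists were among the risers, chosen here after their values were seen. Adamts1, a matrix protease, went from 3.21, 2.01 and 2.24 CPM to 28.9, 25.2, 10.1 and 10.8 CPM (log2 fold change 2.62, SE 0.17, adjusted p = 1.29e-05). Fst, which binds and blocks activin, went from 1.51, 5.50 and 5.32 CPM to 14, 11.8, 18.7 and 11.7 CPM. Plat, a plasminogen activator, rose by 2.34 on the log2 scale, and Ptgs2, an enzyme of prostaglandin synthesis, by 2.52. Ptgs2 was not called without 0h clone 4 replicate 1 (adjusted p = 0.121). Transcription factors of later lineages also rose from at most 1.51 CPM in any 0h library: Maf by 3.74, Msx2 by 2.93, Foxf1 by 2.27, Scrt1 by 2.07 and Msx1 by 1.93. The calls of Foxf1, Scrt1 and Msx1 were lost without 0h clone 4 replicate 1. Of 25 forkhead genes, 4 (16.0%) were called higher (Foxc2, Foxf1, Foxd3 and Foxo1) and 2 (8.0%) lower (Foxi3 and Foxr2). Over all tested genes the shares were 4.30% higher and 3.65% lower. Without 0h clone 4 replicate 1 the forkhead counts were 2 and 0.

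Of 340 tested zinc finger genes named Zfp, 11 (3.24%) were called higher and 14 (4.12%) lower. Both shares lay near those of all tested genes (4.30% higher and 3.65% lower). These counts were 10 and 23 after GC correction, and they went from 2 and 1 without 0h clone 4 replicate 1 to 24 and 28 without 2h clone 8 replicate 2. They were 3 and 7 without 0h clone 8 replicate 1, 4 and 4 without 0h clone 8 replicate 2, and 4 and 6 without 2h clone 8 replicate 1, and the falls were 8 without 2h clone 4 replicate 2. Of 77 histone genes, 8 were called lower and 1 higher, with the linker histones Hist1h1d, Hist1h1b and Hist1h1e at -0.60, -0.55 and -0.54. The count of 8 was 0 without 0h clone 4 replicate 1, 1 without either 0h library of clone 8, 5 without 2h clone 4 replicate 2, 3 without 2h clone 8 replicate 1 and 20 without 2h clone 8 replicate 2. Among 24 Polycomb genes, a list chosen after values were seen, 4 (16.7%) were called higher and 3 (12.5%) lower. Kdm2b, which brings a Polycomb complex to CpG islands, was at 71.0, 67.6 and 66.7 CPM at 0h and at 39.6, 26.5, 29.9 and 41.6 CPM at 2h, and it overlaps other genes on both strands. Neither the rises nor the falls of this list were called without 0h clone 4 replicate 1 (adjusted p = 0.0527 for Kdm2b). The apoptosis gene Pmaip1 rose by 1.29. Bbc3, another apoptosis gene, fell by 0.60 and was not called without any single 0h library or without 2h clone 8 replicate 1 (adjusted p = 0.0684 to 0.0996). Of 25 splicing factors 4 (16.0%) were called higher, among them the kinases Clk4 (0.85) and Clk1 (0.80). When a library was left out, the count lay between 1 and 7. It was lowest without 0h clone 4 replicate 1 and highest without 2h clone 8 replicate 2.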
